A study of Mus musculus with 16 samples.

Results

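Luminal epithelial cells of the mouse mammary gland were compared between 4 arrays labelled p38α-lox, MMTV-Cre and 4 arrays labelled MMTV-Cre, all without the PyMT oncogene. These 8 arrays were chosen by their genotype label, with no measured value, from the 16 arrays of the study. Animals of both groups were 9 weeks old, and the cells were isolated by flow cytometric sorting of the luminal population. Both groups carried MMTV-Cre, a transgene in which the promoter of the mouse mammary tumour virus drives Cre recombinase in mammary epithelium. The p38α-lox allele is a Mapk14 gene flanked by loxP sites, which Cre can remove. The labels do not state whether both copies of Mapk14 were floxed or in which share of the sorted cells Cre had acted. The other 8 arrays came from animals 6 weeks old that also carried MMTV-PyMT, a mammary tumour oncogene of polyoma virus, 4 labelled with p38α-lox and 4 without. They entered here only through a shared estimate of the spread between arrays and 1 test of a difference. Nothing in the labels says that the arrays of a group came from separate animals, so the p-values measure the spread between these arrays, which may be technical.

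The protein encoded by Mapk14, p38α, is a mitogen-activated protein kinase of the stress pathway. Inflammatory cytokines, osmotic stress and damage activate it through the kinases encoded by Map2k3 and Map2k6, and it acts through downstream kinases such as MK2 and MSK1 and through transcription factors such as ATF2. The luminal layer of the gland holds progenitor cells that can form milk-secreting alveoli, and hormone-sensing cells that carry the oestrogen and progesterone receptors. A basal layer of contractile cells surrounds it.

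Expression was measured as log2 signal on Affymetrix arrays, a scale on which 1 unit is a 2-fold difference. From 45141 probe sets, 17097 genes could be named, and 14409 with a mean of at least 3.67 over the 16 arrays were tested. Array medians lay between 4.63 and 4.88, and the correlations among the 8 arrays between 0.928 and 0.990. The array labelled p38α-lox replicate 2 had the lowest median correlation with the others, 0.948. The labelled luminal identity was seen in every array: Krt8 lay between 12.14 and 12.28, Krt18 between 11.91 and 12.28, and the epithelial adhesion gene Epcam between 10.93 and 11.65. The leukocyte marker Ptprc (2.72 to 3.14), the T cell gene Cd3e (3.08 to 3.51), the fibroblast receptor Pdgfra (3.27 to 3.90) and the adipocyte hormone Adipoq (3.15 to 4.06) were too low to be tested. Other markers of the same cell types were not low. The leukocyte marker Cd68 had 5.94, 7.54, 8.95 and 6.78 in the arrays labelled MMTV-Cre. In those labelled p38α-lox it had 5.38, 7.45, 5.85 and 6.56. Cd74, another leukocyte marker, ranged from 5.58 to 6.52. Basal keratins were present and uneven: Krt5 ranged from 6.79 to 9.74 in the arrays labelled MMTV-Cre and from 6.30 to 9.61 in those labelled p38α-lox. The sample titles carry numbers of unstated meaning that fall into a lower range (1895 to 1987) and a higher range (2243 to 2318), with 2 arrays of each group in each. The replicate numbers used here follow the order of deposit, name arrays only and pair none. Leading differences are also given within these ranges, 2 arrays against 2, a split that was added after the data had been seen.

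Mapk14 itself was not lower in the arrays labelled p38α-lox. In the probe set of highest mean, the arrays labelled MMTV-Cre had 7.11, 7.43, 5.56 and 6.02, and the arrays labelled p38α-lox 6.79, 6.37, 7.91 and 8.16. The highest values thus stood in 2 arrays labelled p38α-lox and the lowest in 2 arrays labelled MMTV-Cre, and the groups overlapped. The difference, p38α-lox minus MMTV-Cre throughout, was 0.78 ± 0.42 (SE). Each of the 6 Mapk14 probe sets had a higher mean in the arrays labelled p38α-lox, by 0.073 to 0.78, with exact two-sided permutation p of 0.0857 or more; the smallest p that 4 against 4 arrays allow is 0.0286. Leaving out each array in turn gave 0.45 to 1.09. For the probe set of highest mean, the difference was −0.69 within the lower range of title numbers. Within the higher range it was 2.24, with an adjusted p of 0.0107 in limma. The other probe sets did not all turn this way. Their differences in the lower and higher range were −0.36 and 0.95, −0.46 and 1.18, 0.23 and −0.086, 0.52 and 0.24, and 0.43 and 0.39. The files do not say which part of the gene is flanked by loxP sites or whether any probe set lies in it. Since Mapk14 does not bear out the labels, each direction given here rests on the labels alone. Whether labels were exchanged within a range of title numbers was not tested; if they were, each difference of 4 against 4 arrays would mix both genotypes.

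**Figure D1:**
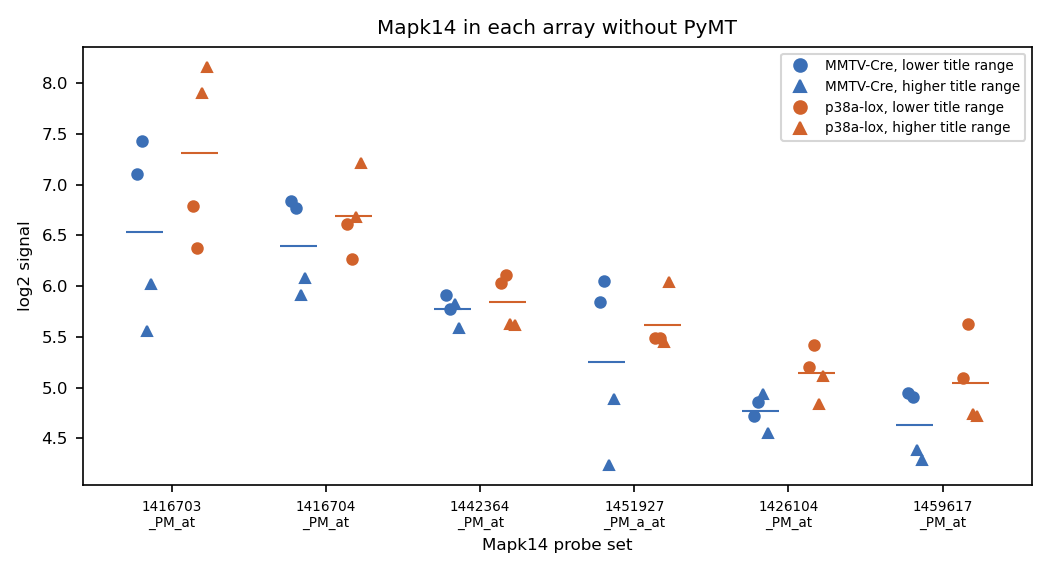
Log2 signal of the 6 Mapk14 probe sets (horizontal axis) in each of the 8 arrays, blue for MMTV-Cre and orange for p38α-lox, with circles for the lower and triangles for the higher range of title numbers; lines are group means of 4 arrays. In the probe set of highest mean, at the left, the 2 orange triangles at 7.91 and 8.16 lie above the 2 blue triangles at 5.56 and 6.02.

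No gene passed the threshold between the groups. In limma 0 of 14409 genes (0.0%) had an adjusted p under 0.05. The unadjusted p was under 0.05 in 690 genes (4.79%), of which 334 were higher (2.32%) and 356 lower (2.47%). Over all tested genes 50.1% of the differences were above 0 and 49.9% below, with a median of 0.0005 and a median SE of 0.22. In 302 genes (2.1%) the 4 arrays of one label did not overlap the 4 of the other, 134 of them higher (0.93%) and 168 lower (1.17%). The arrays labelled p38α-lox were the more variable group: the median SD was 0.33 against 0.24, and the SD was larger in 9459 genes.

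The gene of smallest p was Irak1bp1, which encodes a binding partner of the receptor-associated kinase IRAK1. It had 5.59, 5.29, 5.69 and 5.93 in the arrays labelled MMTV-Cre and 6.62, 6.81, 6.53 and 6.60 in those labelled p38α-lox, so that all 4 of the latter were higher. Its difference was 1.02 ± 0.14 (SE, adjusted p 0.0603); a second Irak1bp1 probe set differed by 0.013. Egr1 and Egr2 encode zinc finger transcription factors that growth factors and stress induce within minutes, and theirs were the largest differences among the 10 higher genes of smallest p. Egr1 had 9.78, 7.75, 7.31 and 7.99 in the arrays labelled MMTV-Cre and 10.86, 10.50, 11.68 and 10.82 in those labelled p38α-lox. The groups did not overlap, and the difference of 2.75 ± 0.45 (SE) had an adjusted p of 0.154. It was 1.91 in the lower and 3.60 in the higher range of title numbers. Egr2, a close relative, had 4.42, 2.57, 2.99 and 3.94 against 5.52, 5.16, 6.24 and 5.35, again with no overlap (2.09 ± 0.38, adjusted p 0.169).

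The other 7 genes of smallest p on the higher side had adjusted p from 0.169 to 0.209 and, like Egr1 and Egr2, no overlap between the groups. The oestrogen receptor coactivator Ncoa7 differed by 1.97 ± 0.35 (SE), the interferon-induced GTPase Ifi47 by 1.86 ± 0.36 and the mitochondrial JNK-binding protein Sh3bp5 by 1.41 ± 0.26. Tnfrsf11a encodes RANK, the receptor through which progesterone-induced RANKL acts on luminal progenitors. It had 6.33, 4.36, 4.57 and 5.96 in the arrays labelled MMTV-Cre and 7.29, 7.58, 6.52 and 7.33 in those labelled p38α-lox, a difference of 1.87 ± 0.37. The forkhead factor Foxs1 differed by 1.51 ± 0.28, the scaffold protein Iqgap1 by 0.78 ± 0.15 and Sh2d4a, an SH2 domain protein, by 0.75 ± 0.14. Iqgap1 had 4 probe sets, with differences from 0.054 to 0.85. Among genes without overlap, larger differences with adjusted p of 0.403 or more were those of Sectm1a (2.26) and the ubiquitin ligase Rnf144b (2.001). The TRAF-binding protein Tank (1.86), the chemerin-binding receptor Ccrl2 (1.84) and Sertad4 (1.68) also belonged to these.

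On the lower side the adjusted p began at 0.419, with the autophagy initiation factor Atg13 (−0.71 ± 0.16, SE). Vegfa, which encodes the main growth factor of blood vessels, had 8.70, 10.08, 9.46 and 9.06 in the arrays labelled MMTV-Cre and 8.15, 8.03, 7.86 and 7.86 in those labelled p38α-lox. All 4 of the latter were lower. The difference was −1.35 ± 0.31 (adjusted p 0.479), and −1.30 and −1.40 in the lower and higher range of title numbers. The liver-type phosphofructokinase Pfkl, the COPII GTPase Sar1a (−0.57 ± 0.13) and the autophagy regulator Phf23 (−0.64 ± 0.15) had the same adjusted p and no overlap either. A second Sar1a probe set differed by −0.052. Slc20a1, a phosphate importer, had 9.26, 8.81, 10.04 and 10.03 against 8.40, 6.57, 7.53 and 8.31. Its groups were separate, at −1.83 ± 0.46 (adjusted p 0.551). The retinol dehydrogenase Rdh11 (−1.06 ± 0.27) and the lactate dehydrogenase gene Ldha had no overlap, whereas the maltase-glucoamylase gene Mgam (−1.61 ± 0.43) and Strn4 (−0.71 ± 0.17) overlapped. The largest negative differences without overlap included those of Lratd1 (−1.79), the tight junction gene Cldn6 (−1.75), Efhd1 (−1.62), Plod1 (−1.40), a collagen lysyl hydroxylase, and Rab8b (−1.08), a vesicle GTPase. A second probe set differed by −0.18 for Plod1 and by −0.17 for Rab8b.

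**Figure D2:**
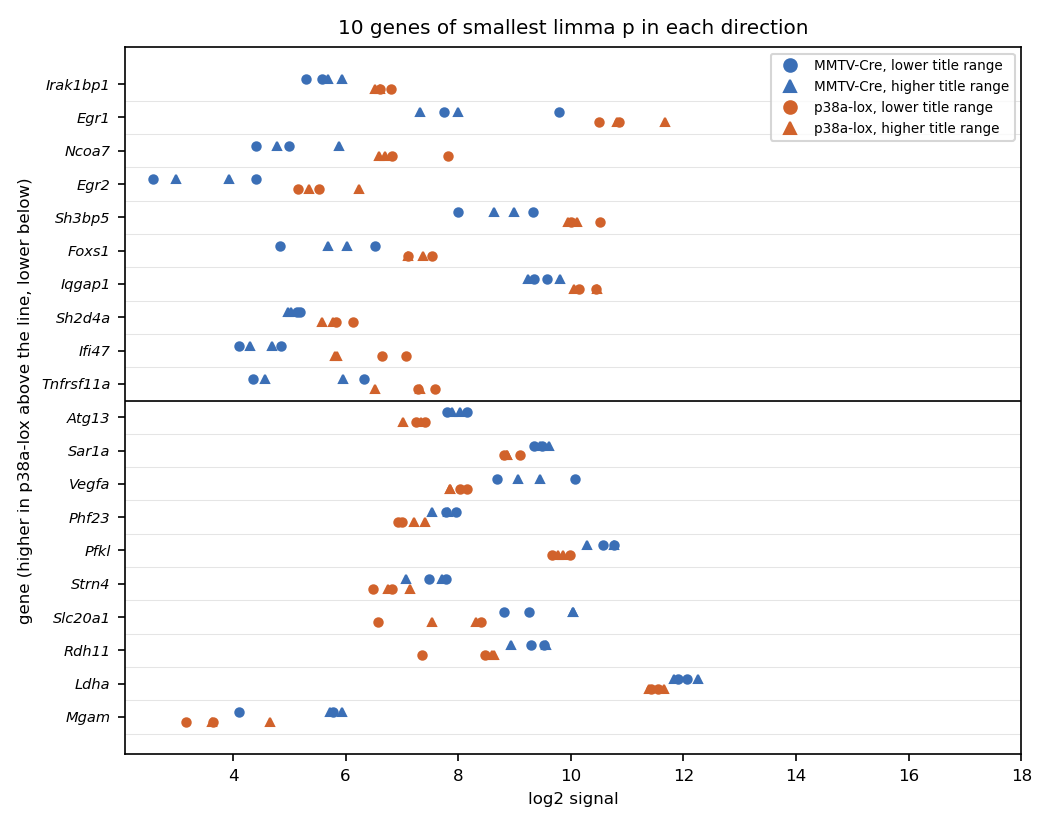
Log2 signal (horizontal axis) in each of the 8 arrays for the 10 genes of smallest limma p in either direction, blue for MMTV-Cre and orange for p38α-lox, circles for the lower and triangles for the higher range of title numbers. Above the line all orange points lie to the right of the blue points of their gene; below it, Strn4 and Mgam overlap. No gene had an adjusted p under 0.05, the lowest being 0.0603 for Irak1bp1.

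Genes of protein folding in the endoplasmic reticulum (ER) were mostly lower in the arrays labelled p38α-lox. These chaperones and oxidoreductases fold secreted and membrane proteins, and the transcription factors ATF6 and XBP1 induce them when unfolded protein accumulates. Many of their promoters hold the ER stress response element (ERSE), CCAAT followed after 9 bases by CCACG. Of the 18 genes of the list that had a promoter in the RefSeq table (GRCm38.p6, 250 bases before to 50 after the start site), 8 held it on either strand, 44.4%, against 0.119% of all 32851 promoters and 0.165% of tested genes with a promoter. The promoter of Sdf2l1, which had the lowest difference of the list, did not hold it. The promoters of 3 genes that held it and whose arrays did not overlap are shown, with the element in capitals. It starts 65 bases before the start site in Hspa5 (chr2:34771840-34772139, + strand) and 105 bases before it in Dnajc3 (chr14:118937682-118937981, + strand). In Calr (chr8:84846882-84847181, − strand) it is written in reverse complement and starts 162 bases before the start site.
Hspa5: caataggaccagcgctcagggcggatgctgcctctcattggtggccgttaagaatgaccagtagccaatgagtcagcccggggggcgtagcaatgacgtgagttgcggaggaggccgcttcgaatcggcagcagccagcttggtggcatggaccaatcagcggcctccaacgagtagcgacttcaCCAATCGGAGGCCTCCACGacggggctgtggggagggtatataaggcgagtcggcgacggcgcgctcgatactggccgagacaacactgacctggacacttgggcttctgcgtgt
Dnajc3: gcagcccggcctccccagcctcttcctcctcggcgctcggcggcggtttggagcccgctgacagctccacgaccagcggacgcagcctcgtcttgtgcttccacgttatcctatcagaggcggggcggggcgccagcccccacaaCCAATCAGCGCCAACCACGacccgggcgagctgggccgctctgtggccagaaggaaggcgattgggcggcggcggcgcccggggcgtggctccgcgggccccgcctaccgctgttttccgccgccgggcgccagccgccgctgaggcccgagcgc
Calr: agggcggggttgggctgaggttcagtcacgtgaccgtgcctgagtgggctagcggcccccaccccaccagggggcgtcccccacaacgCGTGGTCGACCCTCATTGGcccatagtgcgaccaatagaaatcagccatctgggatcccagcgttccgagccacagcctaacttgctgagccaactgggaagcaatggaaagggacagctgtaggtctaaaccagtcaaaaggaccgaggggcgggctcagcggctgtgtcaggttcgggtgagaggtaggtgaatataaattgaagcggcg

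Hspa5 encodes BiP, the Hsp70 chaperone of the ER. Its values were 10.38, 10.73, 11.38 and 10.45 in the arrays labelled MMTV-Cre and 10.32, 9.39, 9.89 and 8.98 in those labelled p38α-lox. The highest of the latter lay just under the lowest of the former, and the difference was −1.09 ± 0.34 (SE, adjusted p 0.749). Calr, the calcium-binding lectin chaperone calreticulin, had 10.57, 10.60, 11.11 and 10.51 against 10.03, 10.30, 10.28 and 10.11 (−0.52 ± 0.16, adjusted p 0.742). Dnajc3, a co-chaperone that also restrains the kinase PERK, had 7.98, 9.01, 9.34 and 8.26 against 7.74, 7.82, 7.75 and 7.82 (−0.86 ± 0.39). The 4 arrays labelled p38α-lox were nearly level for Dnajc3, and the spread lay among the arrays labelled MMTV-Cre. The secreted ER protein Manf was the fourth without overlap (−0.59 ± 0.28). Sdf2l1 had the lowest difference of the list, −1.56 ± 0.48, with overlap, and the disulphide isomerase Pdia6 had −0.69 ± 0.25.

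In the whole list of 21 ER chaperones and folding enzymes, 19 were lower, with a median of −0.58; over all tested genes 49.9% were lower. An unadjusted p under 0.05 on the lower side was reached by 8 (2.47% of all genes), and 4 had no overlap on the lower side (1.17% of all genes). None was higher by either measure. The mean over the list was 8.99, 9.27, 9.55 and 8.75 in the arrays labelled MMTV-Cre and 8.51, 8.53, 8.66 and 8.66 in those labelled p38α-lox. Replicates 2 and 3 of MMTV-Cre were the highest, and replicate 4 came closest to the other group. The same 2 arrays had the highest means of the hormone-sensing luminal markers, 8.83 and 7.33 against 5.95 to 6.35 in the other 6 arrays, and the highest Hmox1, 11.57 and 12.24 against 6.77 to 9.18. With both left out, which was tried after the data had been seen, 17 of the 21 folding genes were lower, with a median of −0.33, and 1 had an unadjusted p under 0.05 on the lower side (0.916% of all genes). The median was −0.69 within the lower and −0.59 within the higher range of title numbers, and 16 of 21 genes were below 0 in both, against 17.9% of all genes. Leaving out each array in turn gave medians from −0.66 to −0.38. In sorted bulk samples, fewer cells that express a gene and less RNA per cell cannot be told apart.

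Genes with the ERSE outside these lists had no common direction. Among 11517 tested genes with a promoter in the table, 19 held the element and 14 of them were lower. The 10 that belong to the folding and degradation lists were all lower, with a median of −0.58, whereas of the 9 others 4 were lower and the median was 0.023. The folding and degradation lists hold known targets of this pathway and were chosen with earlier results of these data known, so their direction is no independent evidence.

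Neighbouring pathways of the ER were lower by less. Of 21 genes of ER-associated degradation and translocation, which remove misfolded proteins or bring new chains into the ER, 15 were lower, with a median of −0.26. Edem1, a lectin that marks glycoproteins for degradation, had 7.14, 7.91, 8.12 and 6.78 against 6.54, 5.87, 6.13 and 6.44, without overlap (−1.24 ± 0.41, SE, adjusted p 0.833). The ubiquitin ligase Syvn1 differed by −0.66 ± 0.23, with overlap. Of 15 ER stress sensors and their transcription factors, 10 were lower with a median of −0.17, and the sensor kinase gene Eif2ak3 had −0.19 ± 0.20. Other Eif2ak3 probe sets differed by 0.18 and 0.00. Of 19 COPII genes, which form the vesicles that leave the ER, 15 were lower, with a median of −0.25. Sar1a, Sec13 (−0.42 ± 0.22) and Tfg (−0.40 ± 0.21) did not overlap, all lower (1.17% of all genes). The COPII median was −0.43 in the lower and −0.03 in the higher range of title numbers.

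Atf4, the transcription factor of the integrated stress response, had 10.36, 10.28, 10.78 and 10.44 in the arrays labelled MMTV-Cre and 10.10, 10.24, 9.80 and 9.40 in those labelled p38α-lox. The groups did not overlap (−0.58 ± 0.25, SE, adjusted p 0.993). A second Atf4 probe set differed by −0.14. Of 18 tested genes of amino acid supply and stress that ATF4 is known to induce, 16 were lower with a median of −0.48, and 3 had an unadjusted p under 0.05 on the lower side and 1 on the higher (2.47% and 2.32% of all genes). Without MMTV-Cre replicates 2 and 3 the median was −0.22, with 14 lower. Trib3, an inhibitor of the kinase AKT, differed by −0.81 ± 0.34, the amino acid transporter Slc7a5 by −0.62 ± 0.27 and the glutathione-degrading enzyme Chac1 by −0.74 ± 0.43, the last without overlap. Psph, which makes serine, was on the higher side (0.34 ± 0.14). Ddit4, an mTORC1 inhibitor that is also on the hypoxia list, had 9.00, 10.57, 8.66 and 8.52 against 6.73, 5.82, 8.53 and 8.51. Its 2 low arrays both belonged to the lower range of title numbers, where the difference was −3.51, against −0.07 in the higher range.

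Glycolytic genes were also mostly lower in the arrays labelled p38α-lox. Glycolytic enzymes break glucose down to pyruvate, and lactate dehydrogenase A turns pyruvate into lactate; under low oxygen the factor HIF1 raises many of these genes through elements with the core ACGTG. That core was found on either strand in the promoters of 13 of 18 glycolysis genes (72.2%) and 13 of 17 hypoxia genes (76.5%), against 19.6% of all promoters and 27.2% of those of tested genes. The promoter of Pfkl and an Ldha promoter at chr7:46846832-46847131 held no such core. Another Ldha promoter (GRCm38.p6, chr7:46845554-46845853, + strand), which held it, is shown with its ACGTG cores, and the overlapping reverse complements CACGT, in capitals.
Ldha: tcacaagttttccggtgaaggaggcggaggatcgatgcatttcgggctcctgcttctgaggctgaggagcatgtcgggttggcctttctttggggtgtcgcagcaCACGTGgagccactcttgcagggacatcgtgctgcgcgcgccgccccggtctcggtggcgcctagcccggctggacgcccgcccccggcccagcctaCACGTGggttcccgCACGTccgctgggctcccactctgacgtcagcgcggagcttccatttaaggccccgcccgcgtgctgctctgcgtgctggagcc

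Ldha had 11.91, 12.05, 12.26 and 11.84 in the arrays labelled MMTV-Cre and 11.43, 11.55, 11.38 and 11.66 in those labelled p38α-lox. No array crossed between the groups, and the difference was −0.51 ± 0.13 (SE, adjusted p 0.656). Pfkl, which commits glucose to glycolysis, had 10.57, 10.77, 10.77 and 10.29 against 9.67, 9.98, 9.77 and 9.87, also separate (−0.78 ± 0.18, adjusted p 0.479). The platelet-type isoform Pfkp differed by −0.65 ± 0.22, the triose isomerase Tpi1 by −0.56 ± 0.16, hexokinase Hk2 by −0.82 ± 0.32 and the lactate exporter Slc16a3 by −0.76 ± 0.33. None of these 4 overlapped.

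Of the 19 glycolytic genes measured, 18 were lower, with a median of −0.51. An unadjusted p under 0.05 was reached by 9, all lower (2.47% of all genes), and 6 did not overlap, all lower (1.17% of all genes). The list mean was between 8.74 and 9.31 in the arrays labelled MMTV-Cre and between 8.36 and 8.79 in those labelled p38α-lox, an overlap of 1 array on either side. Within the ranges of title numbers the median was −0.62 and −0.29, and 13 genes were below 0 in both (17.9% of all genes). Without each array in turn it lay between −0.64 and −0.31. Without both MMTV-Cre replicates 2 and 3 it was −0.37, with 17 lower. An unadjusted p under 0.05 on the lower side was then reached by 2 (0.916% of all genes). Of all 3128 tested genes with an ACGTG core in the promoter, 1695 were lower, and the median was −0.03.

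Of 21 hypoxia response genes, 16 were lower, with a median of −0.45, and 3 had an unadjusted p under 0.05, all lower (2.47% of all genes). Without MMTV-Cre replicates 2 and 3 the median was −0.27, with 18 lower. Beside Vegfa and Ddit4 these included Adm, a vasodilator peptide, with 6.74, 8.22, 8.03 and 7.43 against 6.11, 5.82, 6.48 and 6.85 (−1.29 ± 0.39, SE). A single array of each label, at 6.74 and 6.85, overlapped for Adm. The median was −0.47 and −0.58 in the lower and higher range of title numbers. Ero1a, an ER oxidase that hypoxia also induces, had 9.03, 10.61, 10.41 and 10.51 against 9.10, 9.17, 9.15 and 8.50 (−1.16 ± 0.57), with only MMTV-Cre replicate 1 in the range of the other group.

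**Figure D3:**
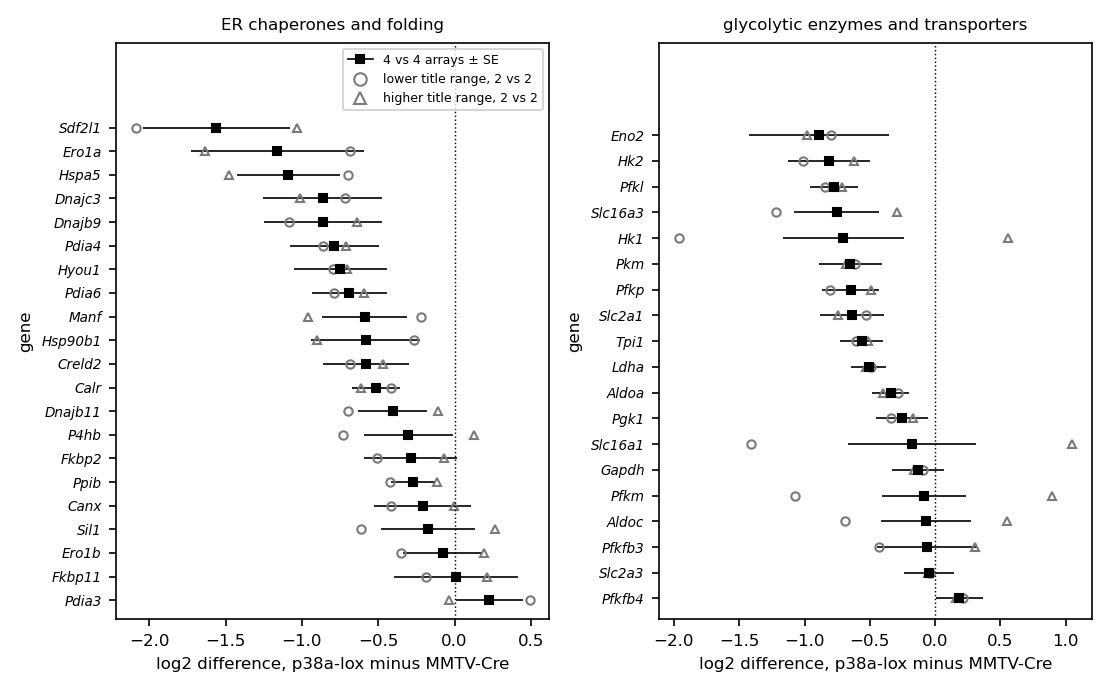
Log2 difference, p38α-lox minus MMTV-Cre (horizontal axis), for each tested gene of the ER folding list at the left and of the glycolysis list at the right; squares with bars are 4 against 4 arrays ± SE, open circles and triangles the lower and higher range of title numbers. Of 21 folding genes 19 lie below 0, and of 19 glycolytic genes 18, and 16 and 13 of them lie below 0 in both ranges.

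**Figure D4:**
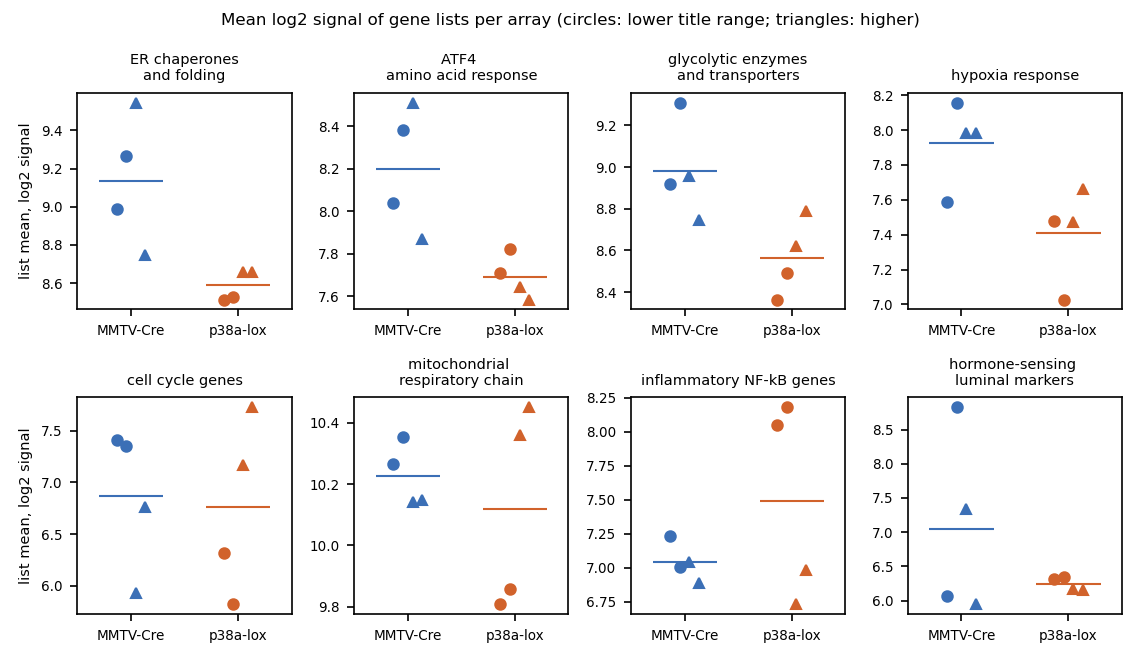
Mean log2 signal of 8 gene lists (vertical axes, each with its own scale) in each of the 8 arrays, blue for MMTV-Cre and orange for p38α-lox, circles for the lower and triangles for the higher range of title numbers; lines are group means of 4 arrays. The ER folding mean lies between 8.51 and 8.66 in p38α-lox and between 8.75 and 9.55 in MMTV-Cre, whereas the cell cycle mean is split by title range within both groups.

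Of the immediate early genes, which signalling through MAP kinases induces within minutes, Egr1 and Egr2 stood apart from the rest. Of 27 tested genes 15 were higher and 12 lower, with a median of 0.015. Only Egr1 and Egr2 did not overlap between the groups, both higher (0.93% of all genes). Ier2 was also on the higher side (1.02 ± 0.36, SE), and the antiproliferative gene Btg2 (−0.79 ± 0.27) and Atf3 (−0.59 ± 0.26) were on the lower side, all with overlap. Fos had 10.77, 10.41, 9.77 and 10.02 in the arrays labelled MMTV-Cre and 10.81, 9.33, 11.63 and 10.89 in those labelled p38α-lox. It overlapped, as Jun did, with 11.15, 10.66, 8.73 and 9.71 against 10.32, 10.45, 10.13 and 8.96. The serum response element, through which MAP kinases act on many of these genes, is CC and GG around 6 bases that are each A or T. Of these genes, 20 had a promoter in the table, and the element was found for 1 of them, Egr2. It was found in 1.63% of all promoters and for 1.67% of tested genes with a promoter. Egr1 had no promoter in the table and was not searched. The Egr2 promoter at chr10:67535249-67535548 did not hold the element. One of the Egr2 promoters (GRCm38.p6, chr10:67537619-67537918, + strand) is shown with the element, which starts 72 bases before the start site, in capitals.
Egr2: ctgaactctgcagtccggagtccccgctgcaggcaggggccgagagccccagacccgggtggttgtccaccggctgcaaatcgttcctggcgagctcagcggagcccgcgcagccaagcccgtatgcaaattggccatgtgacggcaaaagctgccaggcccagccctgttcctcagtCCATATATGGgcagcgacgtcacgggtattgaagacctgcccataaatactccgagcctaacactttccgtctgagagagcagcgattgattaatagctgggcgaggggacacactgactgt

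Upstream of p38, the activators had differences from −0.43 to 0.81. Of 17 tested, 11 were higher with a median of 0.07, 5 had an unadjusted p under 0.05, all higher (2.32% of all genes), and 2 did not overlap (0.93% of all genes). Without MMTV-Cre replicates 2 and 3 the median was 0.25, with 5 of the 17 lower. Map3k4, a kinase that GADD45 proteins switch on, had 5.91, 5.94, 5.03 and 5.74 against 6.32, 6.36, 6.39 and 6.70. All arrays labelled p38α-lox were higher (0.79 ± 0.22, SE, adjusted p 0.687). Tab2, an adaptor of the kinase TAK1, had 9.06, 8.87, 8.76 and 8.99 against 9.84, 9.41, 9.42 and 9.26, also separate (0.56 ± 0.18). A second Tab2 probe set differed by 0.14. The p38 kinase kinase Map2k6 (0.81 ± 0.26) and Gadd45b (0.73 ± 0.31) overlapped. Of the other p38 kinases, Mapk13 (p38δ) differed by −0.35 ± 0.16 and Mapk12 (p38γ) by −0.22 ± 0.39. Mapk12 turned sign when array weights were used or when replicate 2 of either group was left out (0.044 to 0.17). Downstream, 12 of 15 effectors were lower with a median of −0.13, and 0 had an unadjusted p under 0.05 in limma; Atf2 had −0.41 ± 0.26. Among 11 phosphatases and feedback inhibitors, 4 were higher and 7 lower, and Spry2, an inhibitor of receptor tyrosine kinase signalling, had 0.87 ± 0.30.

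Luminal progenitor markers and luminal transcription factors showed no common direction. Of 16 progenitor markers 10 were higher and 6 lower, with a median of 0.15. Aldh1a3, a retinal dehydrogenase used to mark luminal progenitors, had 8.96, 9.38, 10.20 and 9.64 in the arrays labelled MMTV-Cre and 7.13, 8.23, 7.78 and 8.83 in those labelled p38α-lox. It was lower in all 4 of the latter (−1.55 ± 0.42, SE, adjusted p 0.656), with −1.50 and −1.61 in the lower and higher title range. The stem cell factor receptor Kit, another progenitor marker, had 7.15, 4.73, 4.96 and 6.52 against 8.03, 6.51, 7.29 and 7.10. It lay the other way and overlapped (1.39 ± 0.52), while the iron-binding secretory protein Ltf had −0.81 ± 0.30. Runx1, a transcription factor of the luminal lineage, had 7.35, 6.65, 6.71 and 6.82 against 6.77, 7.07, 7.01 and 6.59, a difference of −0.021 ± 0.25. Its 6 probe sets differed by −0.84 to −0.021, and the sign of the one used turned in 5 of the alternative settings. Among 18 luminal transcription factors 8 were higher and 10 lower, with a median of −0.03.

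Of 14 hormone-sensing markers 13 were lower, with a median of −0.92, but the arrays did not separate. The progesterone receptor Pgr had 5.02, 8.21, 7.17 and 4.84 in the arrays labelled MMTV-Cre and 5.37, 4.96, 4.92 and 4.94 in those labelled p38α-lox. Only replicates 2 and 3 of MMTV-Cre were high. The same 2 arrays were high for Prom1 (6.29, 9.80, 9.01 and 7.16 against 6.40, 6.08, 7.20 and 7.83) and for the secreted ligand Wnt5a (3.18, 8.10, 5.77 and 3.57 against 3.43 to 3.61). The list mean spanned 5.95 to 8.83 in MMTV-Cre and 6.16 to 6.35 in p38α-lox, 0 genes had an unadjusted p under 0.05 in limma, and without MMTV-Cre replicate 2 the median was −0.14. With replicates 2 and 3 both left out it was 0.14, with 2 of the 14 lower. Of 16 milk and alveolar genes 12 were higher, with a median of 0.32 that was 0.70 in the lower and −0.10 in the higher range of title numbers. The casein gene Csn1s2b was the 1 without overlap, at a low level (4.36, 4.44, 4.32 and 4.04 against 4.82, 5.36, 4.70 and 4.62). Of all genes 0.93% were higher without overlap. Of 11 luminal keratin and adhesion genes 9 were lower (49.9% of all genes), with a median of −0.11. Krt7 (−0.74 ± 0.29) and Krt19 (−0.54 ± 0.24) had an unadjusted p under 0.05 in limma, both lower (2.47% of all genes) and with overlap.

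Genes of other cell types did not separate the groups. Of 11 basal and myoepithelial markers tested, 8 were lower with a median of −0.09, and the list mean ranged from 5.63 to 7.06 in MMTV-Cre and from 5.35 to 6.93 in p38α-lox. Of 16 leukocyte markers 11 were higher with a median of 0.013, of 12 endothelial markers 4 were higher with a median of −0.025, and of 9 fibroblast markers 4 were higher with a median of −0.07, or −1.09 without MMTV-Cre replicates 2 and 3. The matrix gene Col3a1 was high in MMTV-Cre replicate 1 (9.02, against 4.24 to 6.16 in the other arrays). Dcn was high in 2 arrays labelled MMTV-Cre (9.82 and 8.53) and 1 labelled p38α-lox (9.37), against 5.10 to 6.60 in the others. Adipocyte and erythroid markers had medians of 0.087 over 5 genes and −0.11 over 3. None of these markers lacked overlap between the groups, and their part in the differences above was not tested.

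Inflammatory NF-κB genes were higher in 20 of 22, with a median of 0.32. The median was 0.97 in the lower range of title numbers and −0.12 in the higher range. Cxcl1, a neutrophil chemoattractant, had 5.68, 5.61, 5.45 and 5.65 in the arrays labelled MMTV-Cre and 8.66, 8.26, 5.75 and 6.06 in those labelled p38α-lox. The groups did not overlap, and the 2 highest arrays were those of the lower range (1.58 ± 0.68, SE, adjusted p 0.993). The NF-κB inhibitor Nfkbie (1.17 ± 0.46) and Tnfaip2 (1.42 ± 0.58) overlapped. The prostaglandin synthase Ptgs2 lay the other way, with 4.07, 4.94, 6.66 and 4.81 against 3.39, 4.27, 3.61 and 3.58 (−1.41 ± 0.40). Of 16 interferon-stimulated genes 13 were higher, with a median of 0.29, and 9 were above 0 in both ranges (17.5% of all genes). The GTPase Gbp2, the RNA sensor Ifih1 and the RNA sensor Ddx58 had an unadjusted p under 0.05 (2.32% of all genes on the higher side), with differences of 1.42 ± 0.51, 0.96 ± 0.32 and 0.74 ± 0.33.

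Autophagy genes, which form the vesicles that carry cytoplasm to lysosomes, were lower in 18 of 23, with a median of −0.18. Atg13 (above), the ubiquitin-like protein Atg12 (−0.80 ± 0.27, SE) and Wipi2 (−0.62 ± 0.25), which binds membrane lipids, did not overlap (1.17% of all genes, lower). Other Atg12 probe sets differed by −0.78 and −0.16. Of 15 cholesterol synthesis genes 12 were lower with a median of −0.38, but the last enzyme of the pathway, Dhcr7, was on the higher side (1.40 ± 0.44) and Msmo1 on the lower (−1.04 ± 0.37). Of 13 antioxidant genes 8 were lower with a median of −0.21. The haem oxygenase gene Hmox1 had the lowest difference of that list, −2.65 ± 0.87, with 7.39, 11.57, 12.24 and 9.18 in the arrays labelled MMTV-Cre and 6.77, 7.84, 6.94 and 8.23 in those labelled p38α-lox. The groups overlapped through MMTV-Cre replicate 1, and the other 3 arrays labelled MMTV-Cre lay above all arrays labelled p38α-lox. Catalase, Cat, had 0.70 ± 0.22. The 17 ribosomal protein genes spanned only −0.08 to 0.15.

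The differences within the 2 ranges of title numbers often disagreed. Across the 14409 tested genes their Pearson correlation was −0.293 and their Spearman correlation −0.352, as a description over genes that are not independent and that share arrays within a range. The sign was the same in both ranges in 5106 genes (35.4%), and it was negative in the lower and positive in the higher range in 4930 (34.2%). A limma contrast of the difference in the higher range minus that in the lower range, added after the data had been seen, called 103 genes (0.715%), 98 of them positive (0.68%), and 2724 (18.9%) had an unadjusted p under 0.05. Mapk14 had the smallest p of this contrast (2.93 ± 0.31, SE, adjusted p 0.0154). The contrast sets MMTV-Cre replicates 1 and 2 and p38α-lox replicates 3 and 4 against the other arrays without PyMT. Those were also the arrays highest for Mapk14 in the probe set used. As the data had been seen, this rank and p are no independent evidence. Next came Nicn1 (3.32 ± 0.38) and the death receptor adaptor Tradd (2.72 ± 0.31), both with an adjusted p of 0.0154, then the base excision repair enzyme Neil1 (1.53 ± 0.20) and the Hedgehog signal transducer Smo (1.996 ± 0.26). Within the lower range 27 genes were called and within the higher range 1, Mapk14.

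Among the lists of more than 10 genes, the cell cycle list had the largest share of members that turned with the title range. Of 23 tested, 21 were lower in the lower range and higher in the higher range of title numbers, with medians of −1.43 and 1.18. Of all tested genes 34.2% turned this way. Cenpa, a histone of centromeres, had 7.88, 8.05, 5.60 and 6.30 in the arrays labelled MMTV-Cre and 6.17, 5.16, 8.02 and 9.01 in those labelled p38α-lox. Top2a, the topoisomerase of dividing cells, had 7.04, 7.03, 5.31 and 6.95 against 5.92, 4.86, 7.13 and 8.46. The 4 arrays highest for Cenpa were thus replicates 1 and 2 of MMTV-Cre and 3 and 4 of p38α-lox. Cenpa, Birc5 and Aurka were called by the contrast between ranges (0.715% of all genes). An unadjusted p under 0.05 in that limma contrast was reached by 18 of 23 (18.9% of all genes). Between the groups as a whole the cell cycle median was −0.13, and 0 of 23 had an unadjusted p under 0.05 in limma. Of 19 respiratory chain genes 16 turned the same way (34.2% of all genes), with medians of −0.41 and 0.28. Even so, Cycs (−0.65 ± 0.19) and Ndufa4 (−0.53 ± 0.22) were lower without overlap over all 8 arrays (1.17% of all genes). Other Cycs probe sets differed by −0.56 and −0.03. Basal markers also turned in 8 of 11 (34.2% of all genes), with medians of −0.47 and 0.40. Krt5 had 8.37, 7.86, 6.79 and 9.74 against 6.30, 6.67, 9.05 and 9.61. The part of basal cells in the cell cycle and Mapk14 values was not tested.

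**Figure D5:**
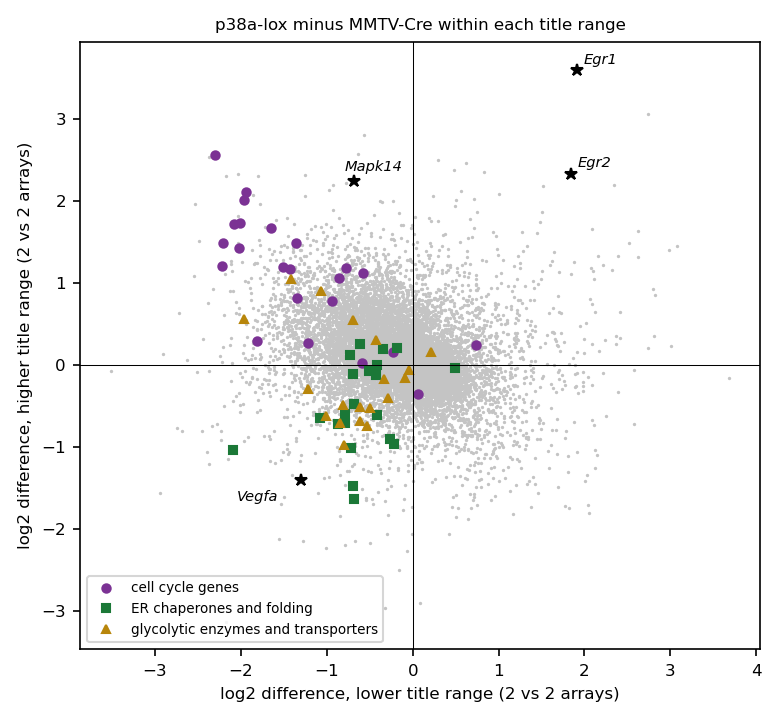
Log2 difference, p38α-lox minus MMTV-Cre, in the lower range of title numbers (horizontal axis) and in the higher range (vertical axis), 2 against 2 arrays each; each grey point is 1 of 14409 tested genes. Cell cycle genes (purple) and Mapk14 lie at the upper left, lower in 1 range and higher in the other, ER folding genes (green) mostly below 0 on both axes, and Egr1 and Egr2 above 0 on both.

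The differences were set beside those of the arrays with PyMT, which differ in age too. In a limma test of the p38α-lox difference without minus with PyMT, 0 of 14409 genes (0.0%) passed the threshold. Before adjustment the p was under 0.05 in 406 (2.82%). Egr1 differed by 2.75 without and 0.31 with PyMT, a contrast of 2.45 ± 0.64 (SE, adjusted p 0.992). For Irak1bp1 the values were 1.02 and 0.06 (contrast 0.96 ± 0.20) and for Vegfa −1.35 and 0.14 (−1.49 ± 0.44), with the same adjusted p. The ER folding list had a median of −0.58 without and 0.19 with PyMT, the glycolysis list −0.51 and −0.0037, and the NF-κB list 0.32 and −0.19. No difference between the groups without PyMT was therefore shown to be particular to them.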

How the data were processed

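RNA of sorted luminal cells was measured on 16 Affymetrix arrays in 4 groups of 4, of which 8 arrays are compared here. The deposited log2 values were made with RMA, per the submitters' processing notes; the sources used here give neither its version nor its settings. Every column of the deposited table was matched to a sample (0 left out). Of 45141 probe sets, 29449 were listed in the platform annotation, 28898 with 1 gene symbol and 551 with several, which were not used; 28689 were matched to RefSeq (GRCm38.p6) by gene ID. The probe set of highest mean over 16 arrays stood for its gene. Probe sets under the 25th percentile were left out, leaving 14409 genes.

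One linear model with a mean per group was fitted to all 16 arrays (12 residual degrees of freedom) with limma 3.58.1 in R 4.3.3, with moderated two-sided tests and Benjamini-Hochberg adjustment over all tested genes. The scripts were tested on simulated data. Named genes were Mapk14 and Runx1, the 10 of smallest p in each direction, the 10 of largest difference without overlap in each direction, and, in each list, up to 4 members of smallest p and any without overlap. The cell type markers, Fos, Jun, Atf3, Cenpa, Top2a, Hk1, Slc16a1 and the genes named for the title ranges fall outside this rule and were named after their values were seen. The arrays, lists and motifs were chosen with earlier results of these data known. Lists share members, among them Ddit4, Ero1a, Cxcl1, Ddit3, Stc2, Plin2, Csn3, Muc1, Gata3, Foxa1, Elf5, Lcn2, Hspb1 and Slc7a11. Lists are described by counts and medians, without a test. An SE is that of the limma contrast. The number of arrays limits the precision. Alternatives were other filters, probe set rules, scalings, variance models, array weights, the title range as a block, each array left out, and MMTV-Cre replicates 2 and 3 both left out (added after the data had been seen).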

Additional observations from a re-analysis of the deposited data

Results flagged for a closer look

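In a group of 4 arrays, a value was singled out where its gap to the nearest other array as a share of the group's range exceeded the critical value of Dixon's test. Of 286 groups checked, 19 met this, and chance gives about 1 in 20. Among the arrays labelled MMTV-Cre, replicate 1 stood apart for Ero1a (9.03 against 10.41 to 10.61), for Mgam (4.101 against 5.72 to 5.94) and for the mean of the luminal transcription factors (8.453 against 8.14 to 8.18). Replicate 2 was high for Atg16l1 (6.889 against 6.11 to 6.21) and for the mean of the interferon-stimulated genes (7.153 against 5.66 to 5.89). Replicate 3 was high for Calr (11.11 against 10.51 to 10.60) and low for Top2a (5.312 against 6.95 to 7.04).

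Among the arrays labelled p38α-lox, replicate 1 was high for Pgr (5.37 against 4.92 to 4.96) and Tank (8.06 against 5.89 to 6.16). Replicate 2 was low for Rdh11 (7.35 against 8.48 to 8.64) and for the mean of the ER degradation list (8.12 against 8.51 to 8.53). It was high for Krt8 (12.27 against 12.14 to 12.15) and for the mean of the luminal keratin and adhesion list (11.11 against 10.84 to 10.87). Replicate 3 was high for the mean of the luminal transcription factors (8.453 against 8.11 to 8.16). Replicate 4 was low for Chac1 (5.342 against 6.05 to 6.14) and Ero1a (8.498 against 9.10 to 9.17). It was high for Pfkp (8.716 against 8.29 to 8.35), Sectm1a (9.119 against 8.25 to 8.37) and the mean of the fibroblast markers (5.847 against 5.51 to 5.56).

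The difference between the labels itself differed between the ranges of title numbers in 103 genes called by limma. The difference in the higher minus that in the lower range was 2.93 for Mapk14, 3.318 for Nicn1, 2.717 for Tradd, 1.528 for Neil1 and 1.996 for Smo. It was 4.867 for Cenpa, 4.052 for Birc5 and 2.842 for Aurka. Among the other genes named in the text, 4 had both arrays labelled p38α-lox below both labelled MMTV-Cre in the lower range and above both in the higher range. These were Top2a (3.315), Hk1 (2.523), Slc16a1 (2.463) and Mapk12 (1.766), with adjusted p from 0.0970 to 0.179. The arrays lay the same way for the means of the cell cycle list (2.608), the p38 kinases (1.345) and the respiratory chain (0.6845), for which the difference was not tested.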

How the results depend on the processing

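No paired analysis was possible because the labels give no replicate numbers; those used here follow the order of deposit and pair no arrays. The number of genes called was 0 with a stricter filter, gene means over probe sets, both other scalings, the trend and robust options, the 8 arrays alone, the title range as a block, and MMTV-Cre replicates 2 and 3 both left out. It was 1 without a filter (Irak1bp1), 8 with array weights, and 0 to 4 when each array was left out: 4 without MMTV-Cre replicate 1 (Egr1, Egr2, Foxs1 and Tnfrsf11a) and 1 without MMTV-Cre replicate 4 (Irak1bp1). The adjusted p of Irak1bp1 ranged from 0.0188 to 0.935, and that of Egr1 from 0.00233 to 0.935. The test against PyMT called 0 throughout. Array weights moved the medians of the ER stress sensors to −0.0064, the luminal transcription factors to 0.1594 and the erythroid markers to 0.0188. The cause was not tested. Within the lower range of title numbers the medians moved to −0.3347 for luminal keratins, −0.2861 for erythroid markers, −1.4288 for cell cycle, 0.9669 for NF-κB, −0.4761 for autophagy and −0.4079 for respiratory chain genes. Within the higher range they moved to 0.6581 for p38 kinases, 0.1948 for p38 activators, 0.1941 for ER stress sensors, −0.0297 for COPII, −0.2934 for glycolysis, 0.155 for luminal transcription factors, 0.0497 for erythroid markers, 1.1791 for cell cycle and 0.2766 for respiratory chain genes. With MMTV-Cre replicates 2 and 3 both left out they moved to 0.2549 for p38 activators, −0.2223 for ATF4, 0.1405 for hormone-sensing, −1.0947 for fibroblast and −0.3105 for heat shock genes. Runx1 turned to 0.0229 with a second quantile normalization and 0.0143 with array weights, and ranged from −0.0997 to 0.1343 as each array was left out. Mapk12 turned to 0.1697 with array weights and ranged from −0.5378 to 0.0443. Among the named genes, 1525 other values kept their direction and side of the threshold, 11 passed it and 8 turned. Mapk14 stayed on the higher side in all these settings over both title ranges, up to 1.5015 with array weights. The 103 genes called between the title ranges rest on 2 arrays of each label in each range.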
